A study of Homo sapiens with 12 samples.

Results

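The genes described here are the chaperones and folding enzymes of the endoplasmic reticulum (ER), the sensors of the unfolded protein response and the machinery that degrades misfolded ER proteins. They were chosen by name, as 45 genes grouped by role, and were read from the probe sets whose array annotation gives 1 gene symbol that is one of them. That gave 99 probe sets for 42 genes, of 54675 probe sets on the array, and 96 of the 99 passed the filter on dim signal, as did 32768 probe sets in all. Each gene is represented by its brightest probe set, so 42 of 13952 measured genes are members. PDIA5, TXNDC5 and SYVN1 are only on probe sets annotated to several genes and are not reported.

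The study measured total RNA of 293T, a line of human embryonic kidney cells that carries the SV40 large T antigen, on 12 one-colour Affymetrix expression arrays. All cells received a plasmid with polyethylenimine and were harvested 48 h later. In 1 group of 4 arrays the plasmid held an artificial hairpin that yields CU1276, a short RNA also produced from a glycine tRNA, and is called the hairpin vector here. In the second group of 4 the plasmid held that tRNA, a tRNA-Gly with the anticodon GCC encoded on chromosome 1, which per the labels is cut to CU1276, and is called the tRNA vector. The remaining group of 4 received the empty vector. The comparisons ask which transcripts differ when CU1276 is supplied in each form. The share of cells that took up a plasmid is not given in the sources used here, and the level of CU1276 was not analysed here. The labels call the 4 arrays of a group biological replicates and do not say whether they came from separate transfections, so p-values measure the spread between these arrays.

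Proteins that enter the ER are folded by HSP70 and HSP90 type chaperones, by lectins that hold their sugar chains and by enzymes that make and exchange disulfide bonds. When unfolded proteins accumulate, the sensors IRE1 (encoded by ERN1), ATF6 and PERK start the unfolded protein response. IRE1 splices XBP1 mRNA, ATF6 is cut into a transcription factor, and both raise the transcription of chaperones, of degradation components and of MANF. MANF is a small lumenal and secreted protein that binds the chaperone BiP (HSPA5) and is itself a textbook product of this response. A question of these data is therefore whether MANF stood alone or moved with the other targets.

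Deposited values were MAS5 signals, an intensity scale on which each probe set has its own brightness, so levels are compared between arrays and not between probe sets. Of 8 genes typical of 293T cells 7 passed the filter, among them NEFM, VIM and KRT18, and LHX1 did not. Of 10 markers of other cell types with a probe set 6 passed. COL1A1, a collagen of fibroblasts, ran from 607 to 1105, and HBB, COL3A1, DCN, PECAM1 and ALB passed with mean signals of 55.8 to 118. PTPRC, MS4A1, CD3E and CDH5 did not pass. One technical difference follows the replicate number and not the vector. The mean signal of 27 probe sets for Bacillus control RNAs was 1726 to 1834 on the arrays numbered 1, 331 to 389 on those numbered 2, 20.0 to 26.1 on those numbered 3 and 22.4 to 23.4 on those numbered 4. Each number holds 1 array of each vector, and the labels do not say what a number shares. A batch below means the arrays numbered 1, those numbered 2, or those numbered 3 and 4.

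The short DNA motifs known as the ER stress response elements ERSE and ERSE-II are bound by ATF6 and XBP1 with the factor NF-Y. ERSE was searched as CCAAT, 9 bases of any kind and CCACG, and ERSE-II as ATTGG, 1 base of any kind and CCACG, both on either strand. The windows were those of RefSeq (GRCh38.p14), 250 bases before to 50 bases after a gene start, and 42 of the 45 members matched a window. An ERSE lay in a window of 8 members, CALR, CANX, CRELD2, ERO1B, HSP90B1, HSPA5, PDIA6 and XBP1. Over the whole set it lay in 0.0769% of 35116 windows and for 0.0916% of 27305 genes. An ERSE-II lay in windows of HERPUD1, HYOU1 and SDF2L1, in 0.0541% of all windows and for 0.0696% of all genes. The sites of 5 well-known targets and the bases before the MANF gene start are shown because the comparisons below turn on whether MANF differed together with them. Capitals mark the motif letters, and each site is written along the strand named.
HSPA5, chr9:125241391-125241409, minus strand: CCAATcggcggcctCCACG
XBP1, chr22:28800603-28800621, minus strand: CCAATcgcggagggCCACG
CRELD2, chr22:49918554-49918572, minus strand: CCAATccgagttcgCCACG
HERPUD1, chr16:56932025-56932035, plus strand: ATTGGgCCACG
SDF2L1, chr22:21642114-21642124, minus strand: ATTGGtCCACG
MANF, chr3:51385041-51385290, plus strand: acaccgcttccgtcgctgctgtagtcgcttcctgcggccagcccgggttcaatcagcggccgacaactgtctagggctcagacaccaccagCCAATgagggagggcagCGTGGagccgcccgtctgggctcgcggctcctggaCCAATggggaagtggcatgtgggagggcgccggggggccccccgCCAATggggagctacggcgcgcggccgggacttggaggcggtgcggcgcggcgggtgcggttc
The MANF window held CCAAT 3 times and the reverse complement of CCACG once. None of the 3 CCAAT copies had the exact letters and spacing of an ERSE, and no exact ERSE-II was found in this window. Sites that differ from these letters were not searched, so MANF may hold an element that this search cannot find. A further motif, the UPRE core TGACGTGG, was found for 4 members (DNAJC10, HYOU1, TXNDC11 and TXNDC5), and not in the window of MANF. It lay in 0.729% of all windows and for 0.927% of all genes. In HYOU1 the core overlaps 1 of its 2 ERSE-II sites.

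MANF (chromosome 3, 51385291 to 51389397, GRCh38.p14) was lower on every hairpin vector array than on any other array. Its only probe set read 3495, 3433, 3439.9 and 3480.3 in hairpin vector cells. It read 4947, 4716, 4539.8 and 4287 in tRNA vector cells, and 4262, 4467, 4215 and 4360.2 in empty vector cells, in the order of the replicate numbers. The hairpin vector values spanned a narrow range below both other groups, which overlapped each other. The means were 3462 ± 30.2 on hairpin vector arrays, 4623 ± 279 on tRNA vector arrays and 4326 ± 112 on empty vector arrays (SD, n = 4 each). The RNA is from bulk cells, in which fewer cells with the transcript and less of it per cell cannot be told apart.

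The log2 fold change of MANF was -0.42 ± 0.067 (SE) for hairpin against tRNA vector, or 0.75 times the signal, and -0.32 ± 0.067 for hairpin against empty vector, or 0.80 times. With the tRNA vector it was 0.094 ± 0.067 above the empty vector. Both hairpin comparisons had an exact two-sided permutation p of 0.0286, the smallest that 4 against 4 arrays allow, and the tRNA vector against the empty vector had 0.114. In limma, after Benjamini-Hochberg adjustment over all 32768 probe sets, MANF did not pass in any of the 3 comparisons. Its adjusted p was 0.236 for hairpin against tRNA vector, where it ranked 3 by p among all probe sets, and 1.00 for hairpin against empty vector, where it ranked 5. MANF was among the known results when the genes were chosen. Both hairpin comparisons use the same hairpin arrays and are not independent of each other. The differences of MANF in both are therefore descriptions, and their p-values are not independent tests of MANF.

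Within batches MANF kept its sign in both hairpin comparisons, which was fixed by the lack of overlap given above and adds nothing to it. For hairpin against tRNA vector the log2 differences were -0.50 on the arrays numbered 1, -0.46 on those numbered 2 and -0.35 on those numbered 3 and 4. For hairpin against empty vector they were -0.29, -0.38 and -0.31. The batches were also chosen with earlier results known. With the batch as a block, limma's adjusted p was 0.0275 for hairpin against tRNA vector, which passes. It was 0.205 for hairpin against empty vector, which does not. That fit called 8 of 32768 probe sets (0.0244%) for hairpin against tRNA vector, 1 of them a member, 3 (0.00916%) for hairpin against empty vector and 4 (0.0122%) for tRNA against empty vector, the last 2 without a member. With the replicate number as a block, by which arrays of different vectors are paired, the adjusted p was 0.0442 for hairpin against tRNA vector and 0.303 for hairpin against empty vector. That block called 6 of 32768 probe sets (0.0183%) for hairpin against tRNA vector, MANF among them as the only member, and 0 (0%) for each of the other comparisons. MANF itself was not called by replicate number (limma adjusted p = 0.842).

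**Figure D1:**
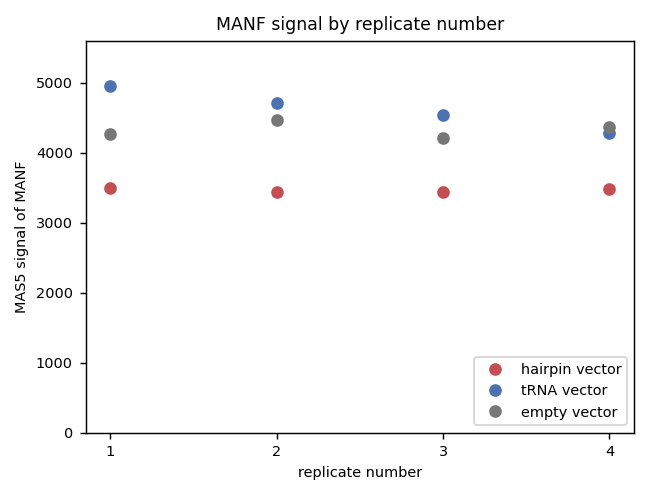
MAS5 signal of MANF (vertical axis) against replicate number (horizontal axis), 1 point for each array, coloured by vector. The 4 hairpin vector points lie between 3433 and 3495, below all 8 other points, at every number.

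The closest relative of MANF, CDNF, is dim. It read 101, 63.1, 92.2 and 65.5 in hairpin vector cells, 63.8, 79.6, 75.6 and 70.5 in tRNA vector cells, and 79.8, 101, 144 and 86.4 in empty vector cells. The tRNA vector values reached just below the lowest empty vector value, and the hairpin vector values overlapped both other groups. Its log2 fold changes were 0.13 ± 0.32 for hairpin against tRNA vector, -0.35 ± 0.32 for hairpin against empty vector and -0.47 ± 0.32 for tRNA against empty vector.

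HSPA5 encodes BiP, the main HSP70 of the ER and the usual readout of this response. It read 11226, 9713, 9413 and 8784 in hairpin vector cells. It read 10652, 11350.0, 9354 and 9195 in tRNA vector cells, and 9471, 10249.9, 9104 and 9217 in empty vector cells. The 3 groups overlapped. The log2 fold changes were -0.051 ± 0.090 for hairpin against tRNA vector, 0.037 ± 0.090 for hairpin against empty vector and 0.088 ± 0.090 for tRNA against empty vector. For hairpin against tRNA vector the 95% interval of HSPA5 ran from -0.24 to 0.14, and the difference between HSPA5 and MANF was not tested.

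CRELD2, a secreted ER stress protein, read 2911, 2769, 2922 and 2656 in hairpin vector cells. It read 3192, 3150.1, 3419 and 3116 in tRNA vector cells, and 2679, 3125, 3007 and 2575 in empty vector cells. All hairpin vector values lay below all tRNA vector values, while the hairpin and empty vector values overlapped. The log2 fold change was -0.19 ± 0.081 for hairpin against tRNA vector, -0.013 ± 0.081 for hairpin against empty vector and 0.18 ± 0.081 for tRNA against empty vector. None of the 3 passed in limma after adjustment (adjusted p = 1.00 each). CRELD2 was above the empty vector with the tRNA vector in 4 of 4 same-number comparisons and below it with the hairpin vector in 2 of 4.

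HERPUD1, an ER membrane protein of the degradation pathway, and SDF2L1, a lumenal partner of BiP cochaperones, both hold an ERSE-II. HERPUD1 read 3192, 2668, 3031 and 2855 in hairpin vector cells, 2933, 2841, 3230.4 and 2855 in tRNA vector cells, and 2976, 3087, 2704 and 2760.3 in empty vector cells. SDF2L1 read 995, 1402, 1314 and 1216 in hairpin vector cells, 1116, 1275, 1445 and 1318 in tRNA vector cells, and 1199, 915, 1319 and 1431 in empty vector cells. The groups overlapped for both genes. For hairpin against tRNA vector the log2 fold changes were -0.015 ± 0.083 for HERPUD1 and -0.071 ± 0.15 for SDF2L1. Against the empty vector HERPUD1 stood at 0.026 ± 0.083 with the hairpin vector and 0.041 ± 0.083 with the tRNA vector, and SDF2L1 at 0.027 ± 0.15 with the hairpin vector and 0.098 ± 0.15 with the tRNA vector.

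DNAJB9 (ERdj4), a BiP cochaperone that IRE1 and XBP1 induce, read 1003, 788, 911 and 932 in hairpin vector cells, 812, 792, 836 and 838 in tRNA vector cells, and 852, 734, 752 and 992 in empty vector cells, and the groups overlapped. Its log2 fold changes were 0.14 ± 0.12 for hairpin against tRNA vector, 0.13 ± 0.12 for hairpin against empty vector and -0.012 ± 0.12 for tRNA against empty vector. HYOU1, a large HSP70 relative, had 2902 ± 666 in hairpin vector cells, 2982 ± 568 in tRNA vector cells and 2761 ± 552 in empty vector cells. HSP90B1 (GRP94), the HSP90 of the ER, had 3832 ± 1177 in hairpin vector cells, 4207 ± 665 in tRNA vector cells and 4451 ± 841 in empty vector cells (SD, n = 4 each). The wide spread of these 2 genes follows the replicate number, as described further on. The probe set of HSP90B1 is of a type whose probes can also match other transcripts, so its values are uncertain.

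**Figure D2:**
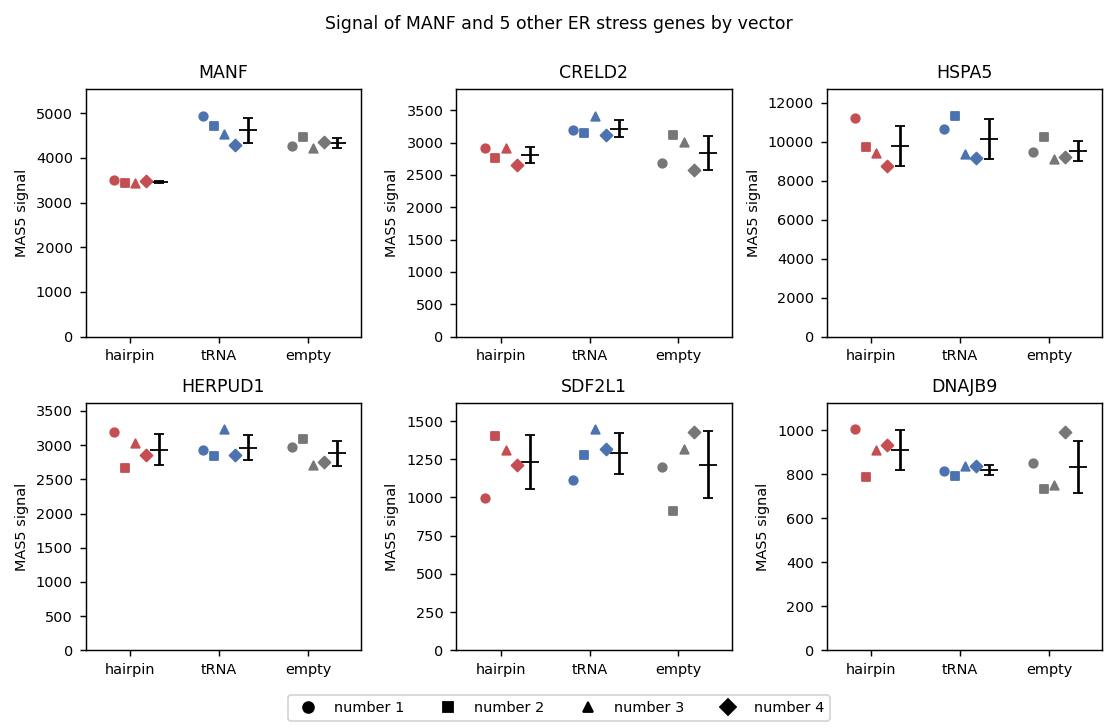
MAS5 signal (vertical axes, starting at 0) of MANF and 5 other genes of the ER stress response in each array, by vector (horizontal axes), with marker shape giving the replicate number and the black bar the mean ± SD of 4 arrays. MANF with the hairpin vector stands apart at 3433 to 3495, CRELD2 is separated between the hairpin and tRNA vectors, and the groups of the other 4 genes overlap.

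For hairpin against empty vector, 24 of the 42 member genes had a higher mean and 18 a lower one, with a median log2 fold change of 0.032, against 0.0042 over all 13952 genes. That median has no settled sign: it was -0.0027 without hairpin vector array 1 and -0.0078 with the mean over all probe sets of a gene. Of 32768 probe sets limma called 0 (0%) after adjustment, where the smallest adjusted p was 0.335, and 867 had an unadjusted p under 0.05. Among the members MANF and ATF6, both lower, had an unadjusted p under 0.05, which is 4.76% of members against 2.74% of all genes. The count was 1 in place of 2 without array 2 or 3 of either vector. Only MANF had groups that did not overlap, 2.38% of members against 2.33% of all genes, so neither share stands far from its background. The empty vector arrays are shared by this comparison and that of the tRNA vector.

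By role, 5 of 6 stress-induced lumenal factors had a lower mean with the hairpin vector than with the empty vector (median -0.069). Of the chaperones and cochaperones 7 of 9 had a higher mean (median 0.064), and of the disulfide isomerases and oxidases 5 of 7 (median 0.063). Over all genes 51.2% had a higher mean, and the median standard error of a member was 0.12. These medians are smaller than that error, and differences between roles were not tested. Only MANF, ATF6B, ATF6 and CDNF had a log2 fold change of 0.32 or more in size, and 36 of 42 genes lay within 0.2 of no change. At the high end by moderated t were ATF6B (1.31 ± 0.73), ERO1A, an oxidase that recharges PDI (0.16 ± 0.11), DNAJB9 and P4HB, which is PDI itself (0.063 ± 0.072). At the low end, after MANF, were ATF6 (-0.48 ± 0.21), HSP90B1 (-0.26 ± 0.21) and TXNDC11, a thioredoxin-like ER protein (-0.16 ± 0.14).

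ATF6, the membrane-bound sensor, read 1121, 781, 905 and 771 in hairpin vector cells, 1257, 1174, 899 and 1423 in tRNA vector cells, and 1143, 1889, 1202 and 895 in empty vector cells. Its groups overlapped, and the value of 1889 on 1 empty vector array was the highest. The log2 fold change was -0.48 ± 0.21 for hairpin against empty vector and -0.41 ± 0.21 for hairpin against tRNA vector (limma adjusted p = 1.00 each). The 3 other probe sets of ATF6 stood at 0.066, -0.020 and -0.36 for hairpin against empty vector, so they did not share a direction. ATF6B, its paralogue, is dim, with 108 ± 19.7 in hairpin vector cells, 53.0 ± 35.8 in tRNA vector cells and 59.3 ± 41.3 in empty vector cells (SD, n = 4 each). Its hairpin vector values lay above all its tRNA vector values, and its log2 fold change there, 1.34 ± 0.73, came with a wide error (limma adjusted p = 1.00). A second ATF6B probe set stood at 1.28 ± 0.60. A dimmer one, which did not pass the filter, went the other way, at 10.9 to 21.9 in hairpin vector cells, 16.7 to 86.5 in tRNA vector cells and 55.7 to 106 in empty vector cells.

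For hairpin against tRNA vector, 18 member genes had a higher mean and 24 a lower one (median -0.014, against 0.0028 over all genes). The median turned positive without hairpin vector array 2 (0.029) or 1 (6.3e-05), without tRNA vector array 3 (0.011) and with quantile normalization (0.0011). Here limma called 0 probe sets (0%) once adjusted, where the smallest adjusted p was 0.236, which MANF had, and 1271 had an unadjusted p under 0.05. At that unadjusted level 5 members differed, DNAJC10 higher and MANF, DERL1, PDIA3 and CRELD2 lower, which is 11.9% of members against 4.56% of all genes. The count of 5 became 2 without tRNA vector array 3 or 4 and 3 without hairpin vector array 2 or 4. With the replicate number as a block it was 9, or 21.4% of members against 9.37% of all genes. The groups did not overlap for 4 members, ATF6B higher and MANF, DERL1 and CRELD2 lower, or 9.52% against 3.24% of all genes. Of the 11 members with an ERSE or ERSE-II, 8 had a lower mean and 3 a higher one (median -0.048), from -0.19 for CRELD2 to 0.26 for CALR, a lectin chaperone. For hairpin against empty vector the same 11 went the other way, with 8 higher and 3 lower (median 0.037). For tRNA against empty vector 8 were higher and 3 lower (median 0.041). Over all genes 50.6%, 51.2% and 50.7% had a higher mean in these comparisons, in this order. For hairpin against tRNA vector, with MANF at -0.42, only the dim ATF6B had a larger change in size.

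PDIA3, a disulfide isomerase of glycoproteins, read 4561, 3636, 4600.2 and 4021 in hairpin vector cells, 4817, 4543, 4937 and 5042 in tRNA vector cells, and 4031, 4271, 4389 and 4164 in empty vector cells. DERL1, a channel component of ER-associated degradation, read 1958, 2239, 2117 and 2147 in hairpin vector cells, 2391, 2272, 2485 and 2497 in tRNA vector cells, and 2148, 2041, 2031 and 1983 in empty vector cells. In both genes the tRNA vector arrays were the high ones, above all empty vector arrays, and the hairpin vector arrays overlapped the empty vector arrays. For hairpin against tRNA vector the log2 fold changes were -0.21 ± 0.083 for PDIA3 and -0.19 ± 0.076 for DERL1, and against the empty vector the tRNA vector stood at 0.20 ± 0.083 for PDIA3 and 0.23 ± 0.076 for DERL1. None passed in limma after adjustment (adjusted p = 1.00 each).

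The other probe sets of these genes did not all share that direction. For tRNA against empty vector the 3 other probe sets of DERL1 stood at -0.028, -0.14 and -0.21, all opposite to its brightest. Of those of PDIA3, 1 had the same direction, at 0.20, and the remaining one stood at -0.53. For hairpin against tRNA vector 1 of 3 other probe sets of DERL1 and 1 of 2 of PDIA3 shared the sign of the brightest. CRELD2 and MANF have 1 probe set each and cannot be checked in this way. Across the 27 members with 2 or more tested probe sets, all probe sets had the same sign for 12 genes for hairpin against tRNA vector, 15 for hairpin against empty vector and 13 for tRNA against empty vector. DNAJC10, a reductase of the degradation pathway, stood at 0.21 ± 0.094 for hairpin against tRNA vector and XBP1, the transcription factor that IRE1 activates, at 0.19 ± 0.12. Of the 4 other probe sets of DNAJC10 only 2 shared its direction, and the other probe set of XBP1 shared that of its brightest. XBP1 read 5654, 4189.8, 4247 and 4400.2 in hairpin vector cells, 4446, 4184, 3462 and 4080.0 in tRNA vector cells, and 5206, 4385, 3961 and 4123 in empty vector cells, and the groups overlapped. For both genes hairpin vector array 1 stood far above the other 3 hairpin vector arrays. The spliced form of XBP1 was not analysed here.

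For tRNA against empty vector, 24 member genes had a higher mean and 18 a lower one, with a median log2 fold change of 0.038, against 0.0030 over all genes. The median was 0.0077 without empty vector array 2, and 0.021 and 0.022 without tRNA vector array 4 or 3. Once adjusted, limma called 0 probe sets (0%), where the smallest adjusted p was 1.00, and 1238 had an unadjusted p under 0.05. At that level 4 members differed, DERL1, PDIA3 and CRELD2 higher and ERN1 lower, which is 9.52% of members against 4.26% of all genes. The count of 4 became 2 without tRNA vector array 4 or empty vector array 4. The groups did not overlap for 5 members, DERL1 and PDIA3 higher and ERN1, EDEM1 and CDNF lower, or 11.9% against 2.94% of all genes. By their brightest probe set, all 7 measured disulfide isomerases and oxidases had a higher mean with the tRNA vector (median 0.097, from 0.034 for ERO1B to 0.20 for PDIA3), against 50.7% of all genes. None passed after adjustment. The other probe sets of PDIA4 and ERO1B had the opposite sign, and 1 of 2 others shared the sign for PDIA3 and for ERO1A. All probe sets of PDIA6 and of P4HB shared it. The chaperones and cochaperones were split, with 4 of 9 higher.

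ERN1, which encodes IRE1, read 806, 967, 997 and 872 in hairpin vector cells, 769, 844, 757 and 772 in tRNA vector cells, and 905, 1126, 872 and 966 in empty vector cells. The tRNA vector values all lay below the empty vector values, and the hairpin vector values overlapped both. Its log2 fold changes were 0.21 ± 0.11 for hairpin against tRNA vector, -0.085 ± 0.11 for hairpin against empty vector and -0.29 ± 0.11 for tRNA against empty vector. A dim further probe set of ERN1 read 27.2, 67.3, 38.8 and 51.6 in hairpin vector cells, against 85.9, 117, 90.6 and 120.3 in tRNA vector cells and 89.0, 123, 89.1 and 136 in empty vector cells. There the hairpin vector arrays were the low ones, at -1.23 ± 0.36 against the tRNA vector and -1.30 ± 0.36 against the empty vector, so the probe sets of ERN1 differ in which vector stands apart. This probe set was named after its values were seen.

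EDEM1, a mannosidase-like degradation factor that is a target of XBP1, read 897, 930.3, 863 and 853 in hairpin vector cells, 833, 779, 784 and 893 in tRNA vector cells, and 902, 898, 916 and 923 in empty vector cells. The tRNA vector values lay just below those of the empty vector, at -0.15 ± 0.091, and hairpin against empty vector gave -0.039 ± 0.091. SEL1L, the adaptor of the degradation ligase, stood at -0.23 ± 0.11 for tRNA against empty vector, with overlapping groups and 1 empty vector array, number 2, far above the other 3. Against the empty vector, 4 of 9 degradation genes had a higher mean with the hairpin vector, and likewise 4 of 9 with the tRNA vector. None of these genes was called with the batch or the replicate number as a block.

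**Figure D3:**
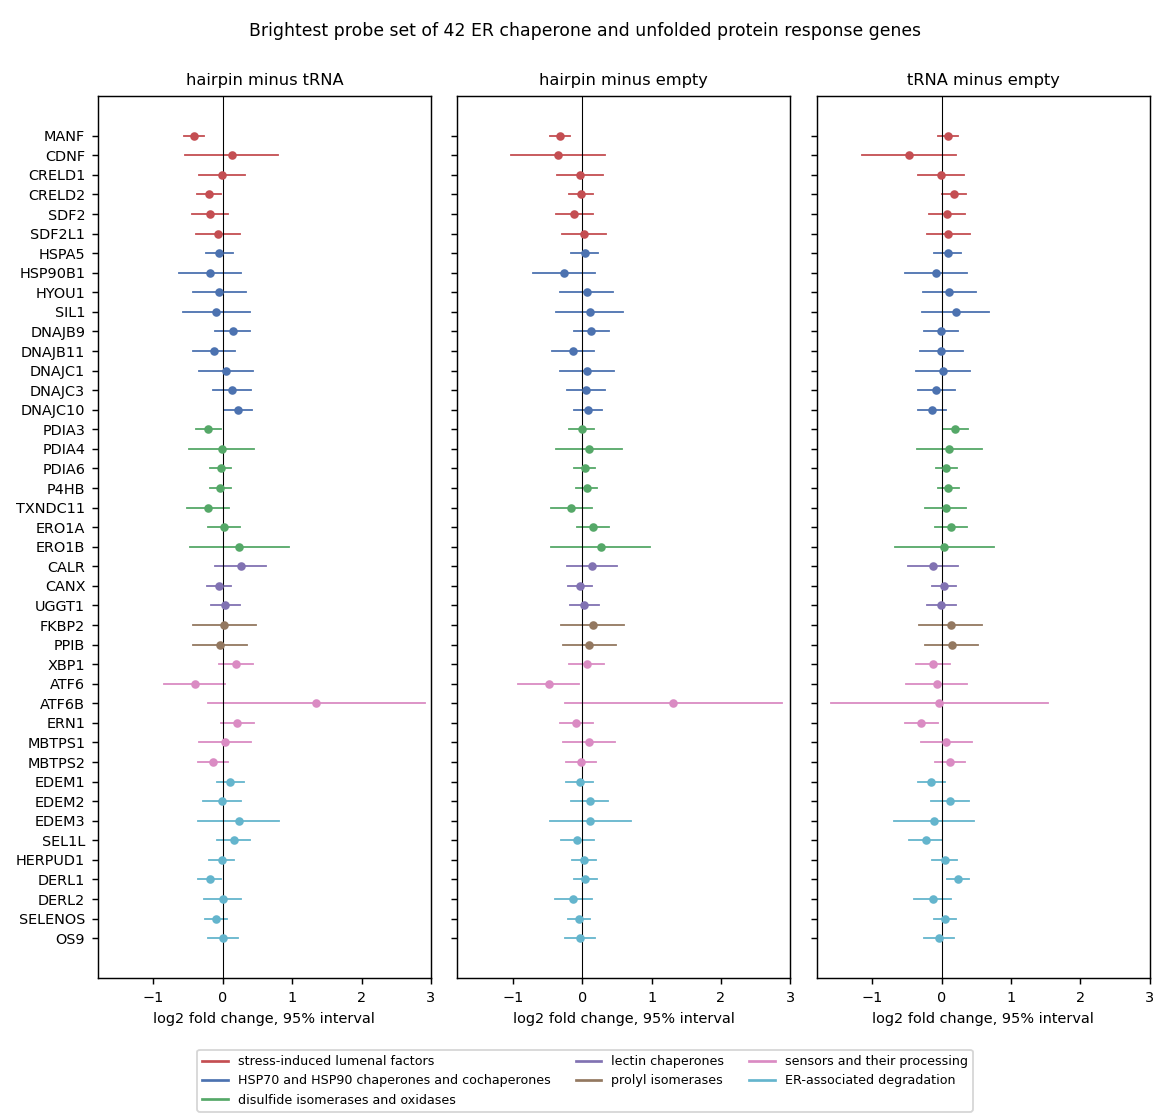
Log2 fold change (horizontal axes, points) with its 95% interval (lines) of the brightest probe set of each of the 42 member genes (rows, coloured by role), in 3 panels for hairpin minus tRNA, hairpin minus empty and tRNA minus empty vector. MANF at -0.42 and -0.32 has narrow intervals below 0 in both hairpin panels, while most other genes lie near 0 and ATF6B has the widest interval. The intervals are not adjusted for the number of genes. Those of DNAJC10, DERL1, PDIA3 and CRELD2 also exclude 0 for hairpin minus tRNA, and that of ATF6 for hairpin minus empty.

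Of 79 further genes of the same pathways, listed by arm, 74 were measured, and none passed in limma after adjustment in any comparison. For hairpin against tRNA vector 35 had a higher mean and 39 a lower one, with 4 higher and 0 lower at an unadjusted p under 0.05, or 5.41% against 4.56% of all genes. For hairpin against empty vector the counts were 43 and 31, with 2 higher and 0 lower at that level, or 2.70% against 2.74%. For tRNA against empty vector they were 46 and 28, with 0 higher and 1 lower, or 1.35% against 4.26%, so these shares lie near or under their backgrounds. SESN2, a stress-induced target of ATF4, averaged 2990 ± 212 in hairpin vector cells, 2252 ± 227 in tRNA vector cells and 2504 ± 328 in empty vector cells (SD, n = 4 each). Its log2 fold change was 0.41 ± 0.11 against the tRNA vector and 0.26 ± 0.11 against the empty vector. UBE2J2, a ubiquitin-conjugating enzyme of the ER, stood at 0.21 ± 0.089 against the tRNA vector and 0.25 ± 0.089 against the empty vector. For tRNA against empty vector ATF4, the transcription factor of the PERK arm, stood at -0.18 ± 0.066, and HSPA13, an HSP70 relative of the ER, at -0.17 ± 0.083. Of the 12 genes of the PERK and ATF4 arm, 8 had a higher mean with the hairpin vector than with the tRNA vector, 5 were higher with the hairpin vector than with the empty vector, and 3 with the tRNA vector than with the empty vector. The 15 measured members known as targets of the response had 5 higher and 10 lower means for hairpin against tRNA vector (median -0.031), and 9 higher and 6 lower for hairpin against empty vector (median 0.027).

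More member genes were called by replicate number than by vector. In a limma fit with vector and replicate number, 11 of 42 member genes (26.2%) differed among the 4 numbers after adjustment, against 14% of all genes, and 24 of 96 member probe sets (25%) against 15.8% of all probe sets. On the arrays numbered 3 and 4, against those numbered 1 and 2, 8 genes passed limma after adjustment as higher and 3 as lower, or 19.0% and 7.14% of members against 4.52% and 5.71% of all genes. Those higher were PDIA4, EDEM3, HSP90B1, HYOU1, DNAJC1, DNAJB11, MBTPS1 and DNAJC3, and those lower were CALR, XBP1 and HSPA5. Of these 11 genes 8 were also among the 11 that differed among the 4 numbers, while HSPA5, DNAJC3 and CALR passed only here and ERO1B, PPIB and DERL2 only there. These shares describe a list that was chosen with earlier results known, and fewer members were called by replicate number without an intensity trend.

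PDIA4, a disulfide isomerase, ran from 2230.3 through a median of 2500.2 to 2774 on the 6 arrays numbered 3 and 4, against 1464, 1651 and 1787 as lowest, median and highest on the 6 arrays numbered 1 and 2. HYOU1 ran from 2778 through 3435 to 3621 on the arrays numbered 3 and 4, against 2194, 2431 and 2594 on those numbered 1 and 2. EDEM3, a mannosidase-like degradation factor, ran from 1552 through 2119 to 2264, against 942, 1218 and 1467. By the brightest probe set the 2 sets of arrays did not overlap in all 3 genes. The share of all genes without such overlap was not counted. The log2 differences were 0.62 ± 0.064 for PDIA4, 0.48 ± 0.066 for HYOU1 and 0.70 ± 0.087 for EDEM3 (limma adjusted p = 2.3e-05, 2.4e-04 and 9.9e-05). The other probe set of PDIA4 stood at 0.15 ± 0.091 (limma adjusted p = 0.34), and a further one of EDEM3 at -0.12. For both of these the 2 sets of arrays overlapped. HSP90B1 differed by 0.49 ± 0.083 (limma adjusted p = 0.00123) by its brightest probe set, while its other, dim one stood at -0.38 ± 0.46. HSPA5 was lower on the arrays numbered 3 and 4, at -0.18 ± 0.050 (limma adjusted p = 0.028).

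ERO1B, an oxidase of PDI, PPIB, a prolyl isomerase, and MBTPS1, the protease that first cuts ATF6, differed among single numbers. ERO1B averaged 769 ± 140.0 on the arrays numbered 1, 322 ± 94.9 on those numbered 2, 419.8 ± 19.6 on those numbered 3 and 428 ± 7.76 on those numbered 4 (SD, n = 3 each). Its other probe set went the opposite way, so ERO1B has no settled direction. That one averaged 137 on the arrays numbered 1, against 231, 227 and 216 on those numbered 2, 3 and 4. PPIB averaged 6895 ± 995 on the arrays numbered 1 and 4279 ± 273 on those numbered 2, with 5053 ± 268 and 5331 ± 503 on those numbered 3 and 4. MBTPS1 averaged 1052 ± 53.2 on the arrays numbered 1, against 1496 ± 71.6, 1562 ± 151 and 1531 ± 38.7 on those numbered 2, 3 and 4. On the arrays numbered 1 the other probe set of PPIB was also highest and that of MBTPS1 also lowest.

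Probe sets of 1 gene did not agree on this difference. For CANX, the membrane lectin calnexin, the brightest stood at -0.069 ± 0.046 and the next 2 at 0.35 ± 0.050 and 0.72 ± 0.073, for numbers 3 and 4 against numbers 1 and 2. For EDEM3 they stood at 0.70, -0.12 and 1.24, the last from a probe set of the type whose probes can match other transcripts. For CALR the brightest stood at -0.35 ± 0.092, another at 0.043 ± 0.090, and the remaining one was called the opposite way, at 0.47 ± 0.093 (limma adjusted p = 0.0037), so CALR has no settled direction. The first 2 of these CALR probe sets are of the type whose probes can match other transcripts. All probe sets had the same sign for 9 of the 27 members with 2 or more. Of the 96 probe sets 21 were higher at a limma adjusted p under 0.05 (21.9%, against 7.64% of all probe sets) and 3 lower (3.12%, against 4.65%). Ratios that read RNA quality also moved with the numbers. The ratio of 3' to 5' signal for GAPDH was 1.18 to 1.39 on the arrays numbered 3 and 1.20 to 1.31 on those numbered 4, against 1.47 to 1.67 on those numbered 1 and 1.20 to 1.38 on those numbered 2. For actin it was 1.90 to 2.19 and 1.83 to 2.26, against 2.40 to 3.05 and 2.45 to 3.30. The part of these ratios and of the Bacillus control RNAs in the difference was not tested. By vector the GAPDH ratio was 1.35 ± 0.22 (hairpin), 1.36 ± 0.13 (tRNA) and 1.33 ± 0.12 (empty) (SD, n = 4 each).

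**Figure D4:**
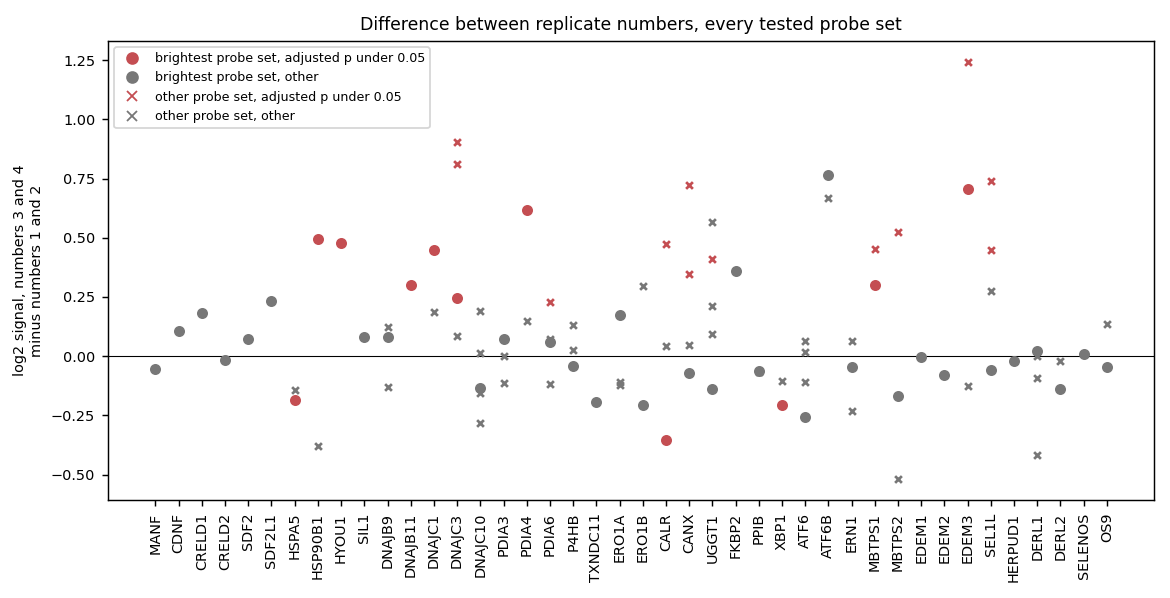
Log2 signal difference between arrays numbered 3 and 4 and those numbered 1 and 2 (vertical axis) for every tested probe set of the 42 member genes (horizontal axis), with circles for the brightest probe set, crosses for the others, and red for a limma adjusted p under 0.05. Red points lie mostly above 0, EDEM3 runs from -0.12 to 1.24, CANX spreads from -0.069 to 0.72, and MANF lies at -0.053.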

How the data were processed

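Total RNA of 12 samples of 293T cells (12 µg each, labelled with biotin) was measured on 1 array each. The authors deposited 1 table of signal intensities, made with MAS5 per the submitters' processing notes, whose version and scaling target are not given in the sources used here. The number of arrays limits the precision. Intensities were taken to log2 with no further normalization. Probe sets other than the 62 controls were kept at or above the 40th percentile of the geometric mean signal (43.3). Names came from the platform's annotation, with 41097 probe sets on 1 gene, 1801 on several and 11777 on none. Groups were taken from the sample titles. Whether the replicate numbers pair arrays was checked by the correlation of deviations from the group means. It was over 0.1 for all 4 same-number pairs of hairpin and tRNA vector arrays (0.11 to 0.36) and of hairpin and empty vector arrays (0.11 to 0.33), which count as paired, and for 3 of 4 of tRNA and empty vector arrays (lowest 0.0987), which do not. Pairs of different numbers ran from -0.23 to 0.15, and 9 of 12 arrays had their highest correlation with an array of their own number. Empty vector array 3 had 0.148 with hairpin vector array 4 and 0.124 with hairpin vector array 3. So numbers 3 and 4 are not clearly told apart, and the split between comparisons rests on the cut of 0.1. The pairing comes from the data, not the labels.

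limma 3.58.1 in R 4.3.3 fitted the 3 group means to all 12 arrays with eBayes and an intensity trend, with Benjamini-Hochberg adjustment of p over the 32768 probe sets. Permutation tests were exact and two-sided, and the errors of fold changes are limma's standard errors. Named genes were MANF, CDNF and 10 classical targets or sensors, the 4 highest and 4 lowest members by moderated t in each comparison, the 6 members with the smallest p for replicate number, members whose groups do not overlap, and the 2 further pathway genes with the smallest p in each comparison. The members, lists and batches were chosen with earlier results of these data known. Alternatives changed the filter, normalization, log2 offset, spread model, block and arrays. RefSeq promoter windows gave the sequences.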

Additional observations from a re-analysis of the deposited data

Results flagged for a closer look

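In a group of 4 arrays, a highest or lowest value was singled out where its gap to the nearest of the others, divided by the range of the group, was above Dixon's 95% critical value. Of 126 sets of 4 values (42 genes in 3 groups) 10 were, and chance marks about 1 in 20. In 6 of the 10 the array was hairpin vector number 1. There PPIB read 7679.8, against 4511 to 4989 on the other 3 hairpin vector arrays, XBP1 read 5654, against 4189.8 to 4400.2, and OS9, a lectin of ER-associated degradation, read 3921, against 2825 to 2984. DNAJC10 read 2809.9 there, against 2425 to 2481, and ERO1B read 929, against 400.5 to 432. MBTPS1 was low there, at 1113, against 1534 to 1582. Other arrays numbered 1 stood apart in the same direction for some of these genes. PPIB read 7229 on tRNA vector array 1 and 5776 on empty vector array 1, and XBP1 read 4446 and 5206 there. ERO1B read 713 and 667, and MBTPS1 1023 and 1019, on the same 2 arrays, each the extreme of its group. The other probe set of ERO1B was instead the lowest of its group on each array numbered 1. It read 135 (hairpin), 136 (tRNA) and 141 (empty) there. DNAJC3, a cochaperone and inhibitor of PERK, was low on hairpin vector array 2, at 1592, against 2005 to 2065. SIL1, a nucleotide exchange factor of BiP, was low on tRNA vector array 2, at 313, against 407 to 412. DERL2, a relative of DERL1, was high on empty vector array 1, at 3198, against 2544 to 2553, and SEL1L on empty vector array 2, at 1367, against 1064 to 1089. MANF was not among them in any group.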

How the results depend on the processing

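MANF kept its direction in all 3 comparisons under all alternatives run: -0.45 to -0.38 for hairpin against tRNA vector, -0.33 to -0.31 for hairpin against empty vector and 0.054 to 0.13 for tRNA against empty vector. In the hairpin comparisons leaving out arrays could not turn it, because the groups do not overlap. The filter, spread model and block leave the fold change as it is. The call of MANF for hairpin against tRNA vector (-0.42, adjusted p = 0.236) appeared with a replicate block (adjusted p = 0.0442) and with the batch block (-0.42, adjusted p = 0.0275). Probe sets called for hairpin against tRNA vector (0) became 6 with the replicate block, 8 with the batch block and 1 without the 3 arrays numbered 1, an alternative chosen after seeing the data. For hairpin against empty vector (0) they became 3 and for tRNA against empty vector (0) 4, both with the batch block. The replicate block, a pairing that passed the cut of 0.1 for all pairs of the hairpin comparisons only, changed no other call of MANF. Members at an unadjusted p under 0.05 for hairpin against tRNA vector (5) were 2 without an intensity trend, 9 with the replicate block and 10 with the batch block (4.76%, 21.4% and 23.8%, against 4.26%, 9.37% and 9.35% of all genes in the same fits). For hairpin against empty vector (2) they were 1 without the trend (2.38%, against 3.02%). Leaving out 1 array at a time gave 2 to 6 for hairpin against tRNA vector, with 2 without tRNA vector array 3 or 4 and 3 without hairpin vector array 2 or 4. It gave 1 to 3 for hairpin against empty vector, with 1 without empty vector array 2 or 3 or hairpin vector array 2 or 3. It gave 2 to 5 for tRNA against empty vector, with 2 without empty vector array 4 or tRNA vector array 4. The exact permutation p of MANF for tRNA against empty vector was lowest, 0.0286, without tRNA vector array 4, and at most 0.20. Without the trend 1847 probe sets differed by replicate number, against 5190, with 4 member genes against 11, and 1933 probe sets between numbers 3 and 4 and numbers 1 and 2, against 4026. The share of all genes called without the trend is not given here. Whether the members still exceed it cannot be read from these counts. The causes of these changes were not tested. The median of the members turned sign in both hairpin comparisons under some alternatives. Of 838 values of members over the alternatives, 53, 49 and 50 turned sign in the 3 comparisons, none of them MANF. The order is hairpin against tRNA vector, hairpin against empty vector and tRNA against empty vector. Many of these values could not turn. The filter, spread model, block and arrays of the vector outside a comparison leave its fold change as it is. In the same order, 22, 18 and 23 of the 42 members never turned. Dim genes such as ATF6B and CDNF have errors too large to place them.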
